A study of Mus musculus with 9 samples.

Results

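Voltage-gated sodium and calcium channels each hold 1 large pore-forming subunit, which sits in the membrane, senses voltage and conducts the ion. The genes described here were 4 sodium pore subunits (Scn1a, Scn2a1, Scn3a, Scn8a) and 6 calcium pore subunits (Cacna1a, Cacna1b, Cacna1c, Cacna1d, Cacna1e, Cacna1g), found by their symbols. They are 10 of the 23360 genes listed in each library, and all 10 were among the 14337 genes expressed highly enough to be tested. Levels were compared between A1G tumours, Ptch1 tumours and cerebellum, with 3 libraries each. A1G tumours came from Math1-cre;A1G;Ptch1+/- mice of mixed strain, in which Cre is under the Math1 (Atoh1) promoter, and Ptch1 tumours from Ptch1+/- mice of mixed strain, so both tumour kinds carried the heterozygous Ptch1 mutation. Cerebellum came from wild type adult C57BL/6 mice, so strain and tissue change together in each comparison with it. What age the tumour-bearing mice had was not given in the sources used here, and the labels number the replicates without stating that they are different animals, so p-values measure the spread between libraries. RNA was taken from homogenised primary tumours and cerebellum, and in such bulk samples fewer cells of a type and less RNA per cell cannot be told apart.

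Sodium channel pores open first when a neuron is depolarised and carry the rising phase of the action potential, and they are concentrated at the axon initial segment. Calcium channel pores turn that electrical signal into calcium entry, which triggers transmitter release at terminals, drives gene expression from the cell body and shapes rhythmic firing. In the adult cerebellum these pores support the spontaneous and repetitive firing of Purkinje cells and the signalling of the very numerous granule neurons. Medulloblastomas of the Hedgehog type arise from granule neuron progenitors, which divide before they take on a neuron's electrical properties.

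Scn1a, Scn2a1 and Scn3a are near-copies in part, which bears on how reads are assigned to them. Aligned coding sequences were 82.7% identical between Scn1a and Scn2a1, 81.4% between Scn1a and Scn3a and 83.6% between Scn2a1 and Scn3a, against 73.1% to 73.8% between each of these and Scn8a. Of all stretches of 100 bases, 1.64% in Scn1a, 2.25% in Scn2a1 and 1.67% in Scn3a also occurred in another of the 4 genes, and none did in Scn8a or between the calcium pore genes, whose identities were 48.0% to 70.4%. How reads in shared stretches were divided between these genes was not given in the sources used here.

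RefSeq promoter windows of 250 bases before to 50 after a gene's start (GRCm38.p6) were matched for 7 of the 10 genes, 12 windows in all. Shown, for the gene with the largest fall and the main sodium pores of cerebellum and of tumours, are Scn1a (chr2:66440788-66441087, minus strand), the second Scn2a1 start (chr2:65668436-65668735, plus strand) and the first Scn8a start (chr15:100870395-100870694, plus strand), with CG dinucleotides in capitals.
Scn1a promoter: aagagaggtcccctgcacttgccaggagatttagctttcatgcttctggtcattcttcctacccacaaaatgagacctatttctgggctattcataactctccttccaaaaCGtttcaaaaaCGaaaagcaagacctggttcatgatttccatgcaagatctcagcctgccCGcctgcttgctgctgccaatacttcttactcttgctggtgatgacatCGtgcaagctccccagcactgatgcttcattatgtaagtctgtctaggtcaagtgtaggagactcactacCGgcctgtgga
Scn2a1 promoter: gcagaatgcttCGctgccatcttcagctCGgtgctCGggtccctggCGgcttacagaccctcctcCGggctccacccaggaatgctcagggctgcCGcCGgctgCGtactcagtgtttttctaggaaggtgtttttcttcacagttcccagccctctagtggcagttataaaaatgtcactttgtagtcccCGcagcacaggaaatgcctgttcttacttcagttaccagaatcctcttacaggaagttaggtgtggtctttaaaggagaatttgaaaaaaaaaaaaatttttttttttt
Scn8a promoter: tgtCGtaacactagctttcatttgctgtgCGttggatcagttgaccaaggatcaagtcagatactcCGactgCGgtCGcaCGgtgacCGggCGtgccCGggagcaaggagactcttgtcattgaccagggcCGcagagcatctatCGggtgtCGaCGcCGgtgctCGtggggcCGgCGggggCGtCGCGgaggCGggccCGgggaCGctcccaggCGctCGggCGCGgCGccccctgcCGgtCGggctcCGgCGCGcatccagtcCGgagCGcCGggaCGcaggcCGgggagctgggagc

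The Scn1a window held 5 CG dinucleotides and the Scn2a1 window shown 9, against a median of 7 over 32851 mouse windows. The Scn8a window shown held 38, more than 95.0% of them. The count depended on the start, as the first Scn2a1 window held 3 and the second Scn8a window 12, more than 60.4% of all windows. On either strand, the letters TATAAA occurred in the Scn2a1 window shown (13.6% of all windows hold them) and GGGCGG in none of the 3 (35.7% of all windows). CAGCTG (16.3%), CATATG (3.91%) and TTCAGCACC (0.371%), letters found in E-boxes bound by Atoh1-like factors and in part of the site bound by the neuronal gene repressor REST, were also not in the windows shown. These counts describe letters only.

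The libraries held 2350941 to 9290237 fragments assigned to genes. Levels are in counts-per-million (CPM) after TMM scaling over all 9 libraries, given for replicates 1, 2 and 3, and the floor of 3 fragments was 0.337 to 1.23 CPM. Group means carry the SD over 3 libraries, and log2 fold changes their standard error (SE). The test was edgeR's quasi-likelihood test, with p-values adjusted over every tested gene by the method of Benjamini-Hochberg and a threshold of 0.05. Progenitor markers set the tumours apart from cerebellum. The 7 granule progenitor markers summed to 2408 to 5829 CPM in the A1G tumours, 5493 to 6350.3 CPM in the Ptch1 tumours and 37.03 to 80.9 CPM in the cerebellum libraries. Mki67, a gene of dividing cells, was the largest part of the sum in every tumour library. It was at 3475, 620 and 2597 CPM in the A1G tumours and 3433, 3946 and 3913 CPM in the Ptch1 tumours. Atoh1 alone was at 652, 386 and 296 CPM in the A1G tumours, 279, 328 and 405 CPM in the Ptch1 tumours and 0, 10.03 and 16.4 CPM in the cerebellum libraries.

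**Figure D1:**
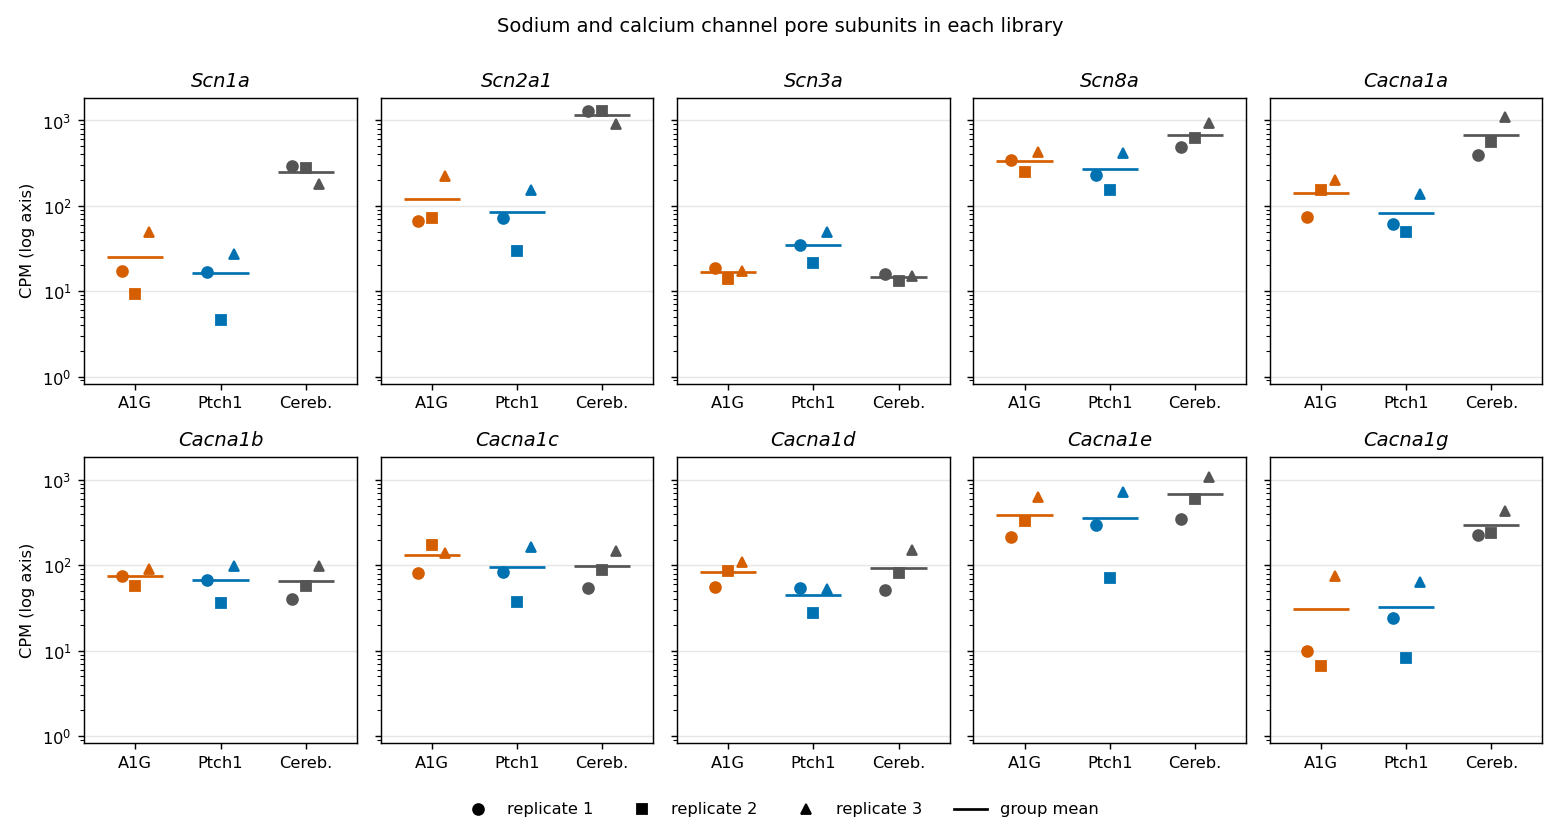
Level of each pore subunit in every library, in CPM on a log axis, with 1 symbol per replicate and a line at the group mean. Scn1a, Scn2a1, Cacna1a and Cacna1g sit lower in all 6 tumour libraries than in any cerebellum library, Scn3a sits highest in Ptch1 tumours, and Cacna1b and Cacna1c overlap across the 3 groups.

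Scn1a, Scn2a1, Cacna1a and Cacna1g were far lower in both tumour kinds than in cerebellum, Scn3a was not lower, and Scn8a was lower by less. Against cerebellum, 4 of the 10 pore genes fell in A1G tumours (Scn1a, Scn2a1, Cacna1a, Cacna1g), 6 did not pass the test and none rose. Of all tested genes 32.4% passed in that comparison, 16.1% lower and 16.3% higher. In Ptch1 tumours the same 4 and Scn8a fell, Scn3a rose and 4 did not pass, where 40% of all tested genes passed, 19.7% lower and 20.2% higher. Levels did not overlap with cerebellum for 5 lower genes in A1G tumours (Scn8a and the 4 that fell), as for 23.4% of all tested genes, and for no higher gene (22.5% of all tested genes), and for 5 lower genes and 1 higher gene in Ptch1 tumours, as for 27% and 27.2% of all tested genes. The median log2 fold change over the 10 genes was -0.90 in A1G tumours and -1.21 in Ptch1 tumours, against 0.03 and 0.00 over all tested genes. Both comparisons use the same 3 cerebellum libraries.

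Scn2a1 (mm10 chr2:65620771-65767447, annotated as Scn2a) encodes a pore of axons and of the early axon initial segment, and was the most abundant sodium pore transcript of cerebellum. It stood at 67.1, 72.7 and 221 CPM in the A1G tumours, 71.7, 29.4 and 155 CPM in the Ptch1 tumours and 1297, 1303 and 911 CPM in the cerebellum libraries. Every tumour library was far under every cerebellum library, and replicate 3 was the highest in each tumour kind. Scn2a1 fell in A1G tumours (log2 fold change -3.29, SE 0.60, adjusted p = 0.00145) and in Ptch1 tumours (log2 fold change -3.79, SE 0.62, adjusted p = 4.64e-04), so that cerebellum held 9.75 times the A1G level and 13.8 times the Ptch1 level. Without A1G replicate 3 the first value was -4.07, and without Ptch1 replicate 3 the second was -4.54.

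Scn1a (chr2:66270778-66440840) encodes the pore on which fast-spiking inhibitory neurons depend most. Its levels were 17.3, 9.36 and 48.9 CPM in the A1G tumours, 16.9, 4.61 and 27.2 CPM in the Ptch1 tumours and 291, 280.0 and 181 CPM in the cerebellum libraries. The tumour libraries did not reach the cerebellum range, and in cerebellum replicate 3 was the lowest, the opposite of most other pore genes. The fall was -3.32 on the log2 scale in A1G tumours (SE 0.65, adjusted p = 0.00211) and -3.995 in Ptch1 tumours (SE 0.67, adjusted p = 5.62e-04). The Ptch1 value was the largest change of any of the 10 pore genes in either comparison. Without A1G replicate 3 the A1G value was -4.24.

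Scn8a (chr15:100869858-101045938), the main pore of mature axon initial segments and nodes and of resurgent current in Purkinje cells, remained abundant in tumours. It was at 341, 246 and 431 CPM in the A1G tumours, 231, 151 and 421 CPM in the Ptch1 tumours and 484, 631 and 922 CPM in the cerebellum libraries. All 6 tumour libraries lay under the lowest cerebellum library, with replicate 3 of each tumour kind nearest to it. Scn8a fell in Ptch1 tumours (log2 fold change -1.35, SE 0.39, adjusted p = 0.0163), a call lost without Ptch1 replicate 1 (adjusted p = 0.0653), Ptch1 replicate 2 (0.0614) or cerebellum replicate 3 (0.0636). In A1G tumours the difference did not pass (log2 fold change -1.001, SE 0.39, adjusted p = 0.0676), but it did without Ptch1 replicate 2 (adjusted p = 0.0466), without Ptch1 replicate 3 (0.0389), with no filter on low genes (0.0468) and by DESeq2 (0.0388). The A1G difference also passed with replicate number fitted as a block.

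Scn3a (chr2:65457118-65567627), the pore that dominates in embryonic and newborn brain, was the only pore gene higher in a tumour kind. Its levels were 18.8, 14.03 and 17.3 CPM in the A1G tumours, 34.6, 21.1 and 49.04 CPM in the Ptch1 tumours and 16.02, 13.1 and 15.2 CPM in the cerebellum libraries. The Ptch1 libraries lay above all other libraries, while A1G tumours overlapped cerebellum. Scn3a rose in Ptch1 tumours (log2 fold change 1.23, SE 0.36, adjusted p = 0.0162), which is 2.34 times the cerebellum level, and the call was lost without Ptch1 replicate 3 (adjusted p = 0.0752) or cerebellum replicate 2 (0.0686). The A1G value was 0.18 (SE 0.36, adjusted p = 0.744). It remained a scarce transcript throughout, with the lowest group mean per unit length of the 10 pore genes in A1G tumours and in cerebellum. The A1G order was not the same in each library. Scn3a stood above Cacna1g in A1G replicates 1 (1.82 against 1.14 CPM per kilobase) and 2 (1.36 against 0.749). In A1G replicate 2 it also stood above Scn1a (1.05).

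Of the 6 calcium pores, 2 fell in both tumour kinds and 4 did not pass in either. Cacna1a (chr8:84388440-84640246) encodes the P/Q-type pore, the main carrier of Purkinje cell calcium current and of release at mature terminals. It stood at 74.8, 152 and 202 CPM in the A1G tumours, 61.8, 49.99 and 138 CPM in the Ptch1 tumours and 389, 558 and 1102 CPM in the cerebellum libraries. No tumour library reached the cerebellum range, although the cerebellum libraries themselves ran widely. Cacna1a fell in A1G tumours (log2 fold change -2.26, SE 0.50, adjusted p = 0.00473) and in Ptch1 tumours (log2 fold change -3.04, SE 0.52, adjusted p = 6.44e-04). An antisense-strand gene, Gm16183, overlaps its exons over 435 bases, and the deposited values are not stated to use strand.

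Cacna1g (chr11:94408391-94474198) encodes the low-voltage-activated T-type pore, which supports rebound and burst firing. Its levels were 9.95, 6.55 and 75.3 CPM in the A1G tumours, 24.5, 8.31 and 64.4 CPM in the Ptch1 tumours and 226, 237 and 437 CPM in the cerebellum libraries. Replicate 3 stood well above the other replicates in both tumour kinds and still under every cerebellum library. The fall was -3.31 in A1G tumours (SE 0.88, adjusted p = 0.0124) and -3.24 in Ptch1 tumours (SE 0.87, adjusted p = 0.0106). Without replicate 3 of the tumour kind compared, these values were -5.19 and -4.21, and DESeq2 gave no adjusted p for this gene.

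Cacna1b (chr2:24603887-24763152), the N-type pore of developing and many mature terminals, was at 75.9, 57.7 and 89.7 CPM in the A1G tumours, 68.00, 35.8 and 98.8 CPM in the Ptch1 tumours and 39.9, 57.5 and 97.6 CPM in the cerebellum libraries. The 3 groups overlapped, with log2 fold changes of 0.19 (interval of 2 SE -0.61 to 0.995) in A1G tumours and 0.044 (-0.76 to 0.85) in Ptch1 tumours against cerebellum.

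Cacna1c (chr6:118587240-119196418), an L-type pore that couples membrane voltage to gene expression, was at 81.1, 176 and 141 CPM in the A1G tumours, 83.6, 36.8 and 163 CPM in the Ptch1 tumours and 54.4, 89.4 and 148 CPM in the cerebellum libraries. Its groups overlapped, with log2 fold changes of 0.45 (interval of 2 SE -0.56 to 1.45) in A1G tumours and -0.051 (-1.05 to 0.95) in Ptch1 tumours. The other L-type pore, Cacna1d (chr14:30039939-30491455), which opens at lower voltage and supports pacemaking, was at 56.03, 84.8 and 110.2 CPM in the A1G tumours, 54.04, 27.97 and 52.5 CPM in the Ptch1 tumours and 52.00, 80.6 and 151 CPM in the cerebellum libraries. A1G tumours lay inside the cerebellum range, and Ptch1 replicates 1 and 3 were just above the lowest cerebellum library. The Ptch1 value missed the threshold (log2 fold change -1.08, SE 0.41, adjusted p = 0.0537) and passed it in 6 alternatives, among them DESeq2 (0.0316), median-of-ratios scaling (0.0483) and the fit without cerebellum replicate 1 (0.02097). Chdh, on the opposite strand, overlaps Cacna1d exons over 589 bases.

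Cacna1e (chr1:154390731-154884501), the R-type pore of dendrites and terminals, had the highest mean per unit length of the 10 genes in both tumour kinds, within its spread of Scn8a. It was at 213, 335 and 627 CPM in the A1G tumours, 299.9, 71.6 and 719 CPM in the Ptch1 tumours and 351, 608 and 1085 CPM in the cerebellum libraries. Its libraries spread over a wide range in every group and overlapped between them, and log2 values of -0.80 (SE 0.67, adjusted p = 0.393) in A1G tumours and -0.91 (SE 0.67, adjusted p = 0.304) in Ptch1 tumours did not pass.

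**Figure D2:**
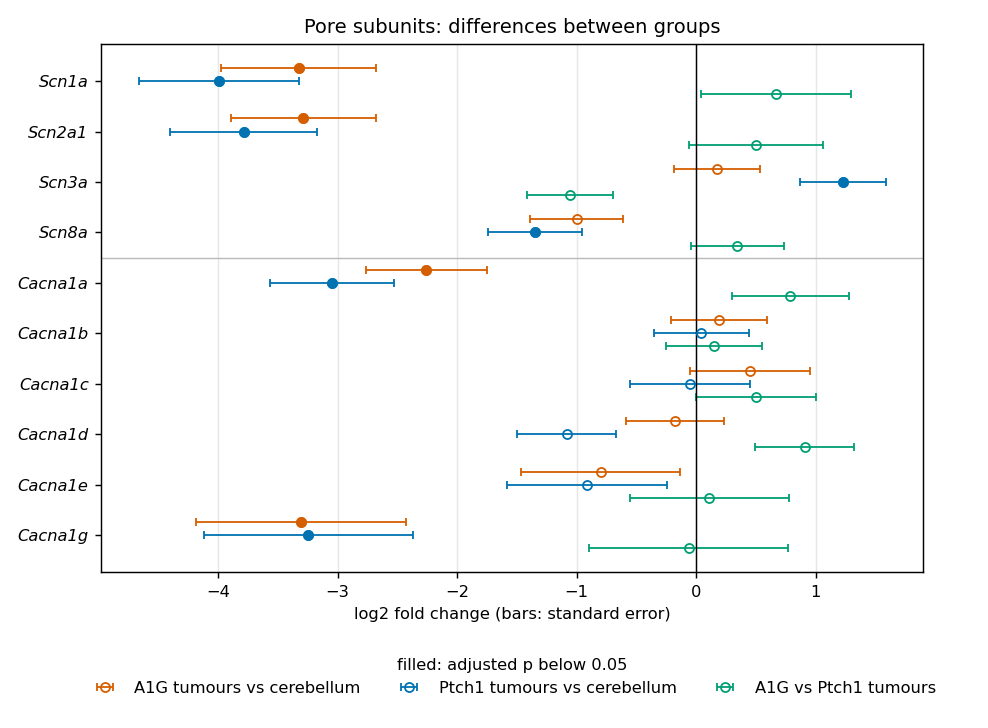
Log2 fold changes of the 10 pore subunits with their standard errors, for A1G tumours against cerebellum, Ptch1 tumours against cerebellum and A1G against Ptch1 tumours, filled where the adjusted p was below 0.05. The 4 genes lower in both tumour kinds lie between -2.26 and -3.995, and no green point is filled.

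A1G and Ptch1 tumours did not differ in any of the 10 pore genes past the test. Over all tested genes edgeR called 0.0139% (2 genes) in this comparison and DESeq2 called 163 genes. At an unadjusted p under 0.05 there were 2 pore genes, Scn3a and Cacna1d, where 10.6% of all tested genes were, and DESeq2 called none of the pore genes. Scn3a was lower in all 3 A1G libraries than in any Ptch1 library (log2 fold change -1.05, SE 0.36, adjusted p = 0.351), and Cacna1d was higher in all 3 A1G libraries (log2 fold change 0.91, SE 0.41, adjusted p = 0.466). Without overlap stood 15.5% of all tested genes, 6.69% higher and 8.84% lower in A1G tumours, and an exact two-sided permutation test of 3 against 3 libraries gave p = 0.1 for both, the smallest it can give. For the genes that fell against cerebellum in both tumour kinds, intervals of 2 SE were taken for the A1G minus Ptch1 log2 difference. They were -0.58 to 1.93 for Scn1a, -0.62 to 1.62 for Scn2a1, -0.19 to 1.76 for Cacna1a and -1.72 to 1.60 for Cacna1g. For Scn8a, which passed against cerebellum in Ptch1 tumours alone, the interval was -0.43 to 1.12. Each interval was wide enough to hold a doubling in 1 direction or both. The sign turned for Scn1a, Scn2a1 and Cacna1g when some single libraries were left out.

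The mixture of pores within each family was then compared, since a share within a library does not depend on how libraries are scaled. Levels between genes were set per unit length (CPM per kilobase of the length implied by the deposited FPKM), and each gene's part of its family's listed members was taken. Among sodium pores, Scn8a took the largest share in tumours and Scn2a1 in cerebellum. The Scn8a share was 71.9, 66.6 and 53.5% in A1G tumours, 59.5, 68.5 and 58.7% in Ptch1 tumours and 18.7, 23.2 and 38.9% in cerebellum. The Scn2a1 share was 18.4, 25.5 and 35.7% in A1G tumours, 24.03, 17.3 and 28.1% in Ptch1 tumours and 65.2, 62.2 and 49.96% in cerebellum. For both genes all 6 tumour libraries stood apart from the 3 cerebellum libraries, Scn8a by 36.2 percentage points and Scn2a1 by -34.3. The shares of 1 family sum to 100%, so they move against each other.

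The Scn3a share separated all 3 groups, at 4.68, 4.47 and 2.53% in A1G tumours, 10.5, 11.3 and 8.05% in Ptch1 tumours and 0.7301, 0.566 and 0.755% in cerebellum. Every Ptch1 library lay above every A1G library, and every A1G library above cerebellum, although the level of Scn3a itself in A1G tumours overlapped cerebellum. A1G minus Ptch1 was -6.06 percentage points (exact permutation p = 0.1, adjusted p = 0.875 over 10 shares). The Scn1a share averaged 5.58 ± 2.48% in A1G tumours, 4.66 ± 1.62% in Ptch1 tumours and 13.3 ± 2.57% in cerebellum (SD, n = 3 each).

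Among calcium pores Cacna1a and Cacna1g took smaller shares in tumours, and Cacna1b and Cacna1c larger ones. The Cacna1a share was 20.4 ± 2.61% in A1G tumours, 17.6 ± 6.44% in Ptch1 tumours and 41.5 ± 1.43% in cerebellum, and the Cacna1g share 3.51 ± 3.37% in A1G tumours, 5.17 ± 1.28% in Ptch1 tumours and 18.5 ± 3.51% in cerebellum. Cacna1b took 13.3 ± 5.83% in A1G tumours, 15.9 ± 4.15% in Ptch1 tumours and 4.52 ± 0.232% in cerebellum, and Cacna1c 18.8 ± 5.69%, 16.8 ± 0.531% and 5.62 ± 0.435% in the same order. The levels of Cacna1b and Cacna1c themselves overlapped between the groups. Cacna1d took 10.8 ± 0.922% in A1G tumours, 8.98 ± 3.75% in Ptch1 tumours and 4.96 ± 0.229% in cerebellum. Cacna1e took 33.3 ± 4.702%, 35.6 ± 12.6% and 24.9 ± 2.43% in the same order. For both genes every A1G library lay above cerebellum. Tumours overlapped cerebellum only through Ptch1 replicate 3 for Cacna1d (4.82%) and Ptch1 replicate 2 for Cacna1e (21.7%). For the other 8 genes an exact two-sided permutation test of 6 tumour against 3 cerebellum libraries gave p = 0.0238, the smallest it can give, and an adjusted p of 0.0298 over the 10 shares. For Cacna1d the adjusted p was 0.0794 and for Cacna1e 0.143.

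**Figure D3:**
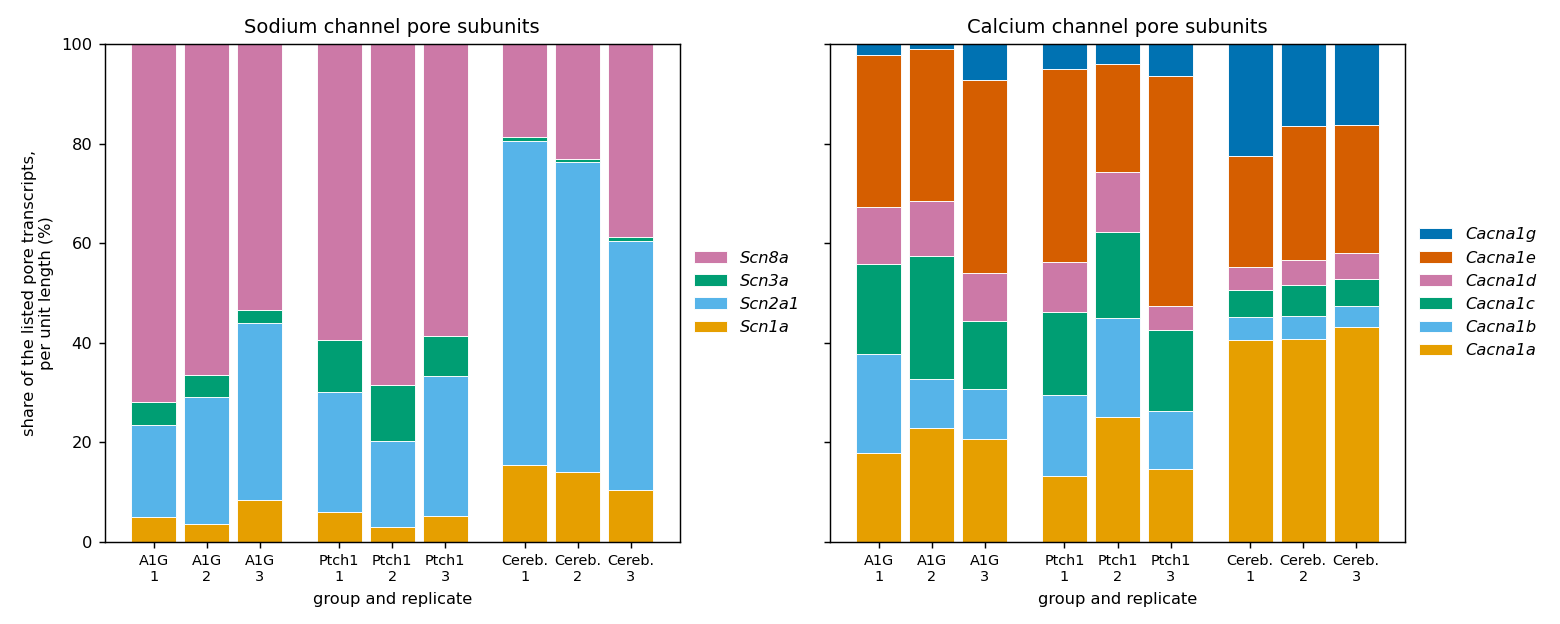
Share of each pore gene among the listed pores of its family, per unit length and in percent, as stacked bars for every library. Scn8a fills 53.5% to 71.9% of the sodium pore bar in the tumour libraries and 18.7% to 38.9% in cerebellum, and the Cacna1a and Cacna1g parts of the calcium pore bar are narrower in tumours.

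Summed over the family, sodium pore transcripts stood at 38.9, 30.4 and 66.03 CPM per kilobase in A1G tumours, 31.8, 18.1 and 58.9 in Ptch1 tumours and 212, 223 and 195 in cerebellum, without overlap between tumours and cerebellum (exact permutation test of 6 against 3 libraries, p = 0.0238). Calcium pore transcripts stood at 50.5, 79.3 and 117 CPM per kilobase in A1G tumours, 55.9, 23.9 and 113 in Ptch1 tumours and 114, 164 and 305 in cerebellum. Here A1G replicate 3 passed the lowest cerebellum library (exact permutation p = 0.0476 for 6 against 3 libraries, p = 0.2 for A1G tumours against cerebellum, and p = 0.1, the smallest possible, for Ptch1 tumours, whose libraries all lay under cerebellum).

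The order of the pores per unit length differed between tumours and cerebellum. In A1G tumours Cacna1e (28.4 ± 15.4 CPM per kilobase) and Scn8a (27.8 ± 7.56) led, within their spread of each other, before Cacna1a (17.1 ± 7.65), Cacna1c (14.9 ± 5.36), Scn2a1 (12.8 ± 9.298), Cacna1b (9.89 ± 2.13) and Cacna1d (8.66 ± 2.805), neighbours that did not differ beyond their spread. Cacna1g (3.495 ± 4.43), Scn1a (2.82 ± 2.34) and Scn3a (1.62 ± 0.235) came last, within their spread of each other. In Ptch1 tumours Cacna1e (26.3 ± 23.8) and Scn8a (21.96 ± 11.4) also led and Scn1a (1.82 ± 1.27) came last, under Scn3a (3.38 ± 1.35), again within their spread. In cerebellum Scn2a1 (125 ± 23.9) led, before Cacna1a (81.6 ± 44.5), Scn8a (55.7 ± 18.3), Cacna1e (49.3 ± 26.98), Cacna1g (34.3 ± 13.6) and Scn1a (28.1 ± 6.81). Cacna1c (10.9 ± 5.29), Cacna1d (9.76 ± 5.25) and Cacna1b (8.64 ± 3.93) did not differ beyond their spread, and Scn3a (1.43 ± 0.147) came last.

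The pore genes varied together between the Ptch1 libraries, and only in part between the A1G libraries. Ptch1 replicate 2 was the lowest Ptch1 library for 10 of 10 pore genes, as it was for 30.9% of all tested genes, and Ptch1 replicate 3 the highest for 9, as for 33.4% of all tested genes. Ptch1 replicate 2 was also the deepest library, with 9290237 fragments, against 4395159 in Ptch1 replicate 1 and 2699234 in replicate 3. Whether depth has a part in this order was not tested. A1G replicate 3 was the highest A1G library for 8 of the 10 (30.9% of all tested genes). The lowest A1G library was replicate 1 for 5 pore genes (33.7% of all tested genes) and replicate 2 for 5 (38.5%). Cerebellum replicate 3 was the highest cerebellum library for 7 (38.9%) and the lowest for Scn1a and Scn2a1. Markers of mature granule neurons moved in part with this order, summing over 8 genes to 376, 961 and 813 CPM in the A1G tumours, 328, 193 and 657 CPM in the Ptch1 tumours and 7441, 6687 and 6531 CPM in the cerebellum libraries. Cbln1 and Slc17a7 were highest in A1G replicate 2 and Snap25 in Ptch1 replicate 1, and all the others of the list in replicate 3 of each tumour kind.

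Markers of other adult cell types also differed between tumours and cerebellum beside the fall of the pores. The 7 Purkinje cell markers summed to 322 to 641 CPM in the A1G tumours, 163 to 247 CPM in the Ptch1 tumours and 7751 to 9997 CPM in the cerebellum libraries. Itpr1, the largest part of that sum, was at 421 ± 138, 189 ± 48.0 and 5892 ± 755 CPM in the same order. Pcp2, found in Purkinje cells, was at 0 in all 3 Ptch1 libraries. Of this list only Calb1 passed edgeR's test between the tumour kinds, higher in A1G tumours (17.3 against 1.20 CPM, adjusted p = 0.00627). Inhibitory interneuron markers (6 genes) summed to 90.8 to 163 CPM in the A1G tumours, 88.8 to 133 CPM in the Ptch1 tumours and 1562 to 1643 CPM in the cerebellum libraries. Oligodendrocyte markers (7 genes) summed to 331 to 432 CPM in the A1G tumours, 67.7 to 386 CPM in the Ptch1 tumours and 7665 to 8183 CPM in the cerebellum libraries. The 7 astrocyte and Bergmann glia markers summed to 1238 to 2335 CPM in the A1G tumours, 1119 to 2209 CPM in the Ptch1 tumours and 4984 to 5199 CPM in the cerebellum libraries. Slc1a2, a glutamate transporter that makes up much of that sum, and Gfap did not pass, while Aqp4, Gdf10, Slc4a4, Slc1a3 and Gja1 fell in both tumour kinds. Oligodendrocyte precursor markers summed to 409 to 829.7 CPM in the A1G tumours, 694 to 1015 CPM in the Ptch1 tumours and 127 to 152 CPM in the cerebellum libraries. Of these 4, Pdgfra, Cspg4 and C1ql1 rose in both tumour kinds, while Gpr17 fell in Ptch1 tumours and did not pass in A1G tumours. Unipolar brush and nuclear neuron markers were at 78.9 to 429, 114 to 393 and 449 to 523 CPM in that order, microglia and macrophage markers at 141 to 199.9, 98.8 to 149.5 and 105 to 131 CPM in that order and meningeal fibroblast markers at 64.9 to 125, 98.1 to 220.3 and 104 to 147 CPM in that order. Endothelial markers were at 62.9 to 115, 39.4 to 102 and 115 to 174 CPM in that order, pericyte and smooth muscle markers at 61.8 to 144, 37.1 to 84.8 and 102 to 123 CPM in that order and the 3 listed erythrocyte markers at 11.5 to 17.7, 3.89 to 15.7 and 204 to 319 CPM in that order. The part of these cell types in the pore levels was not tested.

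**Figure D4:**
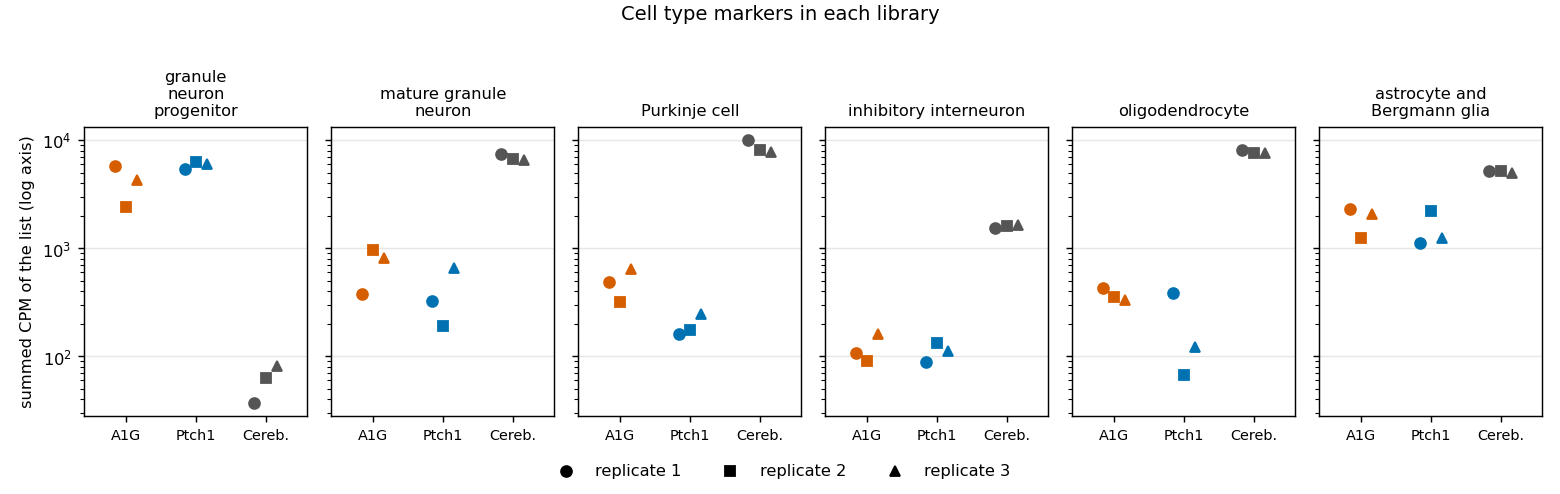
Summed CPM of 6 marker lists in every library on a log axis, with 1 symbol per replicate. Progenitor markers run over 2408 to 6350.3 CPM in the tumour libraries and 37.03 to 80.9 CPM in the cerebellum libraries, and the markers of mature granule neurons, Purkinje cells, interneurons and oligodendrocytes run the other way. Mki67 is the largest part of the progenitor sum in every tumour library.

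The partners of the pores were followed by role. Their counts against cerebellum stand beside shares over all tested genes of 16.1% lower and 16.3% higher in A1G tumours, and 19.7% lower and 20.2% higher in Ptch1 tumours. Sodium channel beta subunits, small membrane proteins that tune gating and placement, included genes that fell and 1 that rose. Scn2b fell to 34.04 ± 21.3 CPM in the A1G tumours and 15.5 ± 3.03 CPM in the Ptch1 tumours, against 695 ± 91.3 CPM in the cerebellum libraries (log2 -4.36, adjusted p = 1.47e-05, and -5.49, adjusted p = 2.9e-06). Scn4b, which supports resurgent current in Purkinje cells, was at 2.52 ± 1.47 CPM in the A1G tumours (log2 -4.49, adjusted p = 1.97e-04) and 58.7 ± 10.1 CPM in the cerebellum libraries, and only 1 Ptch1 library held any fragment, 3 in number.

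Scn3b, the beta subunit known from immature brain, rose in both tumour kinds. It was at 39.4, 40.5 and 47.3 CPM in the A1G tumours, 40.98, 34.9 and 52.9 CPM in the Ptch1 tumours and 10.2, 11.3 and 9.78 CPM in the cerebellum libraries. The tumour kinds overlapped each other and all 6 libraries stood above cerebellum (log2 2.02, adjusted p = 2.95e-04, in A1G tumours and 2.04, adjusted p = 1.99e-04, in Ptch1 tumours). Of the 4 FGF homologous factors, which bind the tail of sodium pores inside the cell, 2 fell in each tumour kind and none rose (median log2 -3.02 in A1G tumours and -2.48 in Ptch1 tumours). Fgf12 was at 9.23 ± 2.81 CPM in the A1G tumours, 8.38 ± 1.47 CPM in the Ptch1 tumours and 135 ± 15.1 CPM in the cerebellum libraries (log2 -3.88 and -4.005), and Fgf14 at 21.01 ± 23.9, 31.8 ± 24.2 and 185 ± 19.1 CPM in the same order (log2 -3.15 and -2.57).

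Calcium channel partners also moved in both directions. Of 4 beta subunits, which carry pores to the membrane, 2 fell in each tumour kind and none rose (median log2 -1.86 in A1G tumours and -2.44 in Ptch1 tumours). Cacnb4, the main beta subunit of cerebellum, was at 57.5 ± 29.3 CPM in the A1G tumours, 24.7 ± 5.46 CPM in the Ptch1 tumours and 396 ± 58.8 CPM in the cerebellum libraries (log2 -2.79, adjusted p = 1.33e-04, and -4.01, adjusted p = 9.88e-06), and Cacnb2 fell as well (log2 -2.95 and -4.38). Of 3 tested alpha2delta subunits, which sit outside the membrane and raise surface levels of the pore, 1 rose and 2 fell in A1G tumours, and 1 rose and 1 fell in Ptch1 tumours (median log2 -1.77 in A1G tumours and -1.39 in Ptch1 tumours).

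Cacna2d1 was the alpha2delta subunit that rose. It was at 495, 423 and 707 CPM in the A1G tumours, 564, 502 and 541 CPM in the Ptch1 tumours and 108, 90.3 and 119.8 CPM in the cerebellum libraries. All tumour libraries were well above cerebellum (log2 2.35, adjusted p = 6.27e-05, in A1G tumours and 2.34, adjusted p = 4.5e-05, in Ptch1 tumours). Cacna2d2, the subunit prominent in Purkinje cells, ran the other way, at 7.37, 9.36 and 12.7 CPM in the A1G tumours, 1.37, 0.225 and 2.299 CPM in the Ptch1 tumours and 129, 148 and 214 CPM in the cerebellum libraries. Its Ptch1 values rest on 2 to 6 fragments per library, and no A1G library overlapped a Ptch1 library (adjusted p = 0.151). Cacna2d3 fell in A1G tumours (log2 -1.77, adjusted p = 0.0328) and did not pass in Ptch1 tumours (adjusted p = 0.0639). Of 6 tested genes of the gamma family, which also holds partners of glutamate receptors, only Cacng7 passed, lower in both tumour kinds (log2 -1.85 and -2.26), and the family had a median log2 -0.86 in A1G tumours and -0.54 in Ptch1 tumours.

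**Figure D5:**
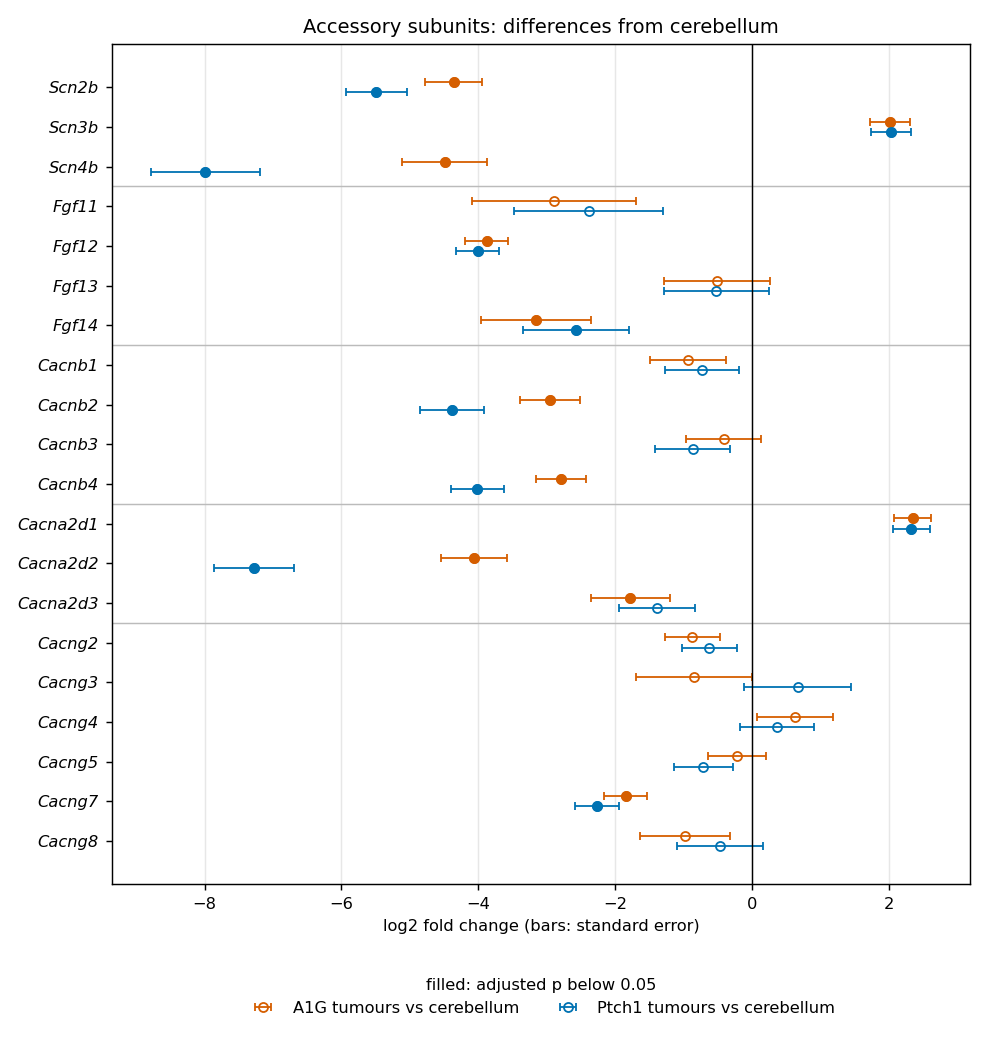
Log2 fold changes of tested accessory subunits with their standard errors, for A1G tumours and Ptch1 tumours against cerebellum, filled where the adjusted p was below 0.05. Scn3b and Cacna2d1 are the only filled points above 0, at 2.02 to 2.35, and the Ptch1 point of Scn4b rests on 3 fragments in all.

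Genes for proteins that hold the pores in place were followed next. Of 8 genes for anchors of the axon initial segment and node, 4 fell in A1G tumours and 5 in Ptch1 tumours, and none rose (median log2 -1.07 in A1G tumours and -1.27 in Ptch1 tumours). Cntn1, a cell adhesion protein that binds sodium channel complexes, was at 231 ± 61.8 CPM in the A1G tumours, 164 ± 42.5 CPM in the Ptch1 tumours and 861 ± 250.2 CPM in the cerebellum libraries. Nfasc, an adhesion protein of the initial segment (log2 -1.90 and -2.70), Sptbn4, its spectrin (-2.10 and -2.18), and Ank2, an ankyrin (-1.19 and -1.23), also fell in A1G and in Ptch1 tumours. Ank3, the ankyrin that gathers sodium channels at the initial segment, did not pass and was at 1076 ± 218 CPM in the A1G tumours, 982 ± 105 CPM in the Ptch1 tumours and 777 ± 347 CPM in the cerebellum libraries. It was singled out after its values were seen.

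Of 7 tested genes for proteins that tether calcium channels at release sites, 5 fell in A1G tumours and 4 in Ptch1 tumours, and none rose (median log2 -1.14 in A1G tumours and -1.82 in Ptch1 tumours). Rims1, a scaffold that binds the calcium pore directly, was at 24.4 ± 21.4 CPM in the A1G tumours, 20.1 ± 13.4 CPM in the Ptch1 tumours and 339 ± 174 CPM in the cerebellum libraries (log2 -3.81, adjusted p = 0.00235, and -4.11, adjusted p = 0.00113). The active zone proteins Pclo (-2.04 and -2.48) and Rims2 (-1.91 and -2.10) fell in both, and Bsn in Ptch1 tumours alone passed (adjusted p = 0.0136, against 0.111 in A1G tumours). Erc1 (adjusted p = 0.0257, against 0.269 in Ptch1 tumours) and Ppfia3 (0.0487, against 0.06398), other active zone genes named after their values were seen, passed in A1G tumours alone. None of these 3 genes passed between the tumour kinds (adjusted p = 0.642 for Bsn, 0.5403 for Erc1 and 0.938 for Ppfia3).

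The repressor REST silences sodium channel genes in cells that are not neurons, with corepressor and chromatin partners. Of the 8 genes listed, 5 rose in A1G tumours and 6 in Ptch1 tumours, and none fell (median log2 1.04 in A1G tumours and 0.97 in Ptch1 tumours). Rcor2 rose to 248 ± 81.9 CPM in the A1G tumours and 336 ± 109.7 CPM in the Ptch1 tumours, against 2.02 ± 1.73 CPM in the cerebellum libraries (log2 6.96, adjusted p = 5.6e-06, and 7.40, adjusted p = 2.79e-06). The deacetylase gene Hdac2 rose by 1.64 in A1G tumours and 2.44 in Ptch1 tumours on the log2 scale, Sin3a, a scaffold of deacetylase complexes, by 0.998 and 0.96, and Kdm1a, a histone demethylase, by 1.07 and 0.89. These partners serve many other factors in dividing cells. Rest itself, named after its values were seen, was at 20.4 ± 11.5 CPM in the A1G tumours, 16.5 ± 1.76 CPM in the Ptch1 tumours and 19.3 ± 3.86 CPM in the cerebellum libraries and did not pass (adjusted p = 0.898 and 0.694). None of the genes in the lists of partners passed between A1G and Ptch1 tumours.

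Of the other pore genes of both families, most were too scarce to test. Only Nalcn of 7 other sodium pore genes and Cacna1i of 4 other calcium pore genes were high enough to test. Nalcn, a sodium leak pore, was at 59.1 ± 63.2 CPM in the A1G tumours, 98.03 ± 52.2 CPM in the Ptch1 tumours and 79.8 ± 4.42 CPM in the cerebellum libraries and did not pass. Cacna1i, a T-type pore like Cacna1g, was at 18.5 ± 14.6 CPM in the A1G tumours, 10.03 ± 15.2 CPM in the Ptch1 tumours and 90.2 ± 41.4 CPM in the cerebellum libraries, a fall that passed in Ptch1 tumours (adjusted p = 0.0272) and not in A1G tumours (adjusted p = 0.106).

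Genes of like profile were sought by the Euclidean distance between centred log2(CPM + 1) values over the 9 libraries, for the pore gene with the largest rise and that with the largest fall. Nearest to Scn3a were Lhfpl4 at a distance of 0.371, Ccser1 at 0.5204 and Fip1l1 at 0.665. Lhfpl4, which organises inhibitory synapses, was at 67.03 ± 6.11 CPM in the A1G tumours, 132 ± 45.5 CPM in the Ptch1 tumours and 67.9 ± 11.7 CPM in the cerebellum libraries. Nearest to Scn1a were Rasgef1a at 0.848, Adcy1 at 0.954 and Lin7a at 1.12. Adcy1, a calcium-stimulated adenylyl cyclase, was at 339.9 ± 288 CPM in the A1G tumours, 262 ± 263 CPM in the Ptch1 tumours and 3292 ± 433 CPM in the cerebellum libraries.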

How the data were processed

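Ribosome-depleted total RNA was prepared with an Ion Total RNA-Seq Kit V2 and read on an Ion Proton (200-base reagents, 3 libraries on a chip), per the labels' protocols. The sources used here do not say which libraries went on the same chip, so chip and group cannot be told apart. Per the submitters' processing notes the build was mm10 and Bowtie 0.12.2 was among the tools. The annotation, the quantifier, the use of strand and the treatment of reads that match several genes are not given in the sources used here.

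Per the file headers, each deposited table gives raw fragments per gene (expected counts assigned by the authors without scaling, with 1147 to 1440 values per library not whole within 1e-06), scaled fragments (a signal the authors obtained by scaling each library) and FPKM (scaled fragments per kilobase and per-million, by the authors). Raw fragments were rounded to whole numbers. Genes reaching an FPKM of 1 in 3 or more libraries were fitted with edgeR 4.0.16 under R 4.3.3, with all 9 libraries in the fit, a mean for each group and TMM scaling. Benjamini-Hochberg adjustment ran over 14337 genes. Gene length came from the deposited FPKM and scaled fragments, calibrated on 1235 genes with a single annotated transcript. Alternatives used DESeq2 1.42.0, other scalings and filters, the compared groups alone, a replicate block and each library left out. Coding sequences and loci came from GENCODE M21 on mm10, aligned with MAFFT, and promoters from RefSeq. Intervals and floors cover counting error or library spread only.

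The pore genes, the lists of partners and the marker lists were chosen with earlier results of these data known. Every pore gene is named. Of each list of partners, the text names up to 4 genes past the threshold in either tumour kind against cerebellum, with the largest mean absolute log2 change, or where none passed the 2 with the highest level. The summed level of each of the 13 marker lists is given. Some items of these lists and sequences are not reported here.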

Additional observations from a re-analysis of the deposited data

How the results depend on the processing

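Pore genes called against cerebellum numbered 4 to 5 in A1G tumours and 5 to 7 in Ptch1 tumours when 1 library was left out, and 0 throughout between A1G and Ptch1 tumours. The count of higher pore genes in Ptch1 tumours, Scn3a, ranged from 0 to 1. With 1 library left out, the tumour minus cerebellum share ran over -9.58 to -7.102 points for Scn1a, -38.9 to -31.2 for Scn2a1, 5.37 to 7.12 for Scn3a, 32.1 to 42.2 for Scn8a, -23.7 to -21.3 for Cacna1a, 8.997 to 11.1 for Cacna1b, 10.7 to 13.00 for Cacna1c, 4.45 to 5.91 for Cacna1d, 7.13 to 12.02 for Cacna1e and -15.2 to -12.1 for Cacna1g. Without a cerebellum library the exact test cannot go below p = 0.0714. Cacna1e passed without Ptch1 replicate 2 and Cacna1d without Ptch1 replicate 3 (unadjusted p = 0.0357).

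Log2 values that changed sign had not passed the test. Against Ptch1 tumours, A1G values ran over -0.24 to 1.25 for Scn1a, -0.28 to 1.25 for Scn2a1, -0.16 to 0.52 for Cacna1b, -0.41 to 1.08 for Cacna1e and -1.94 to 0.91 for Cacna1g with 1 library left out. Against cerebellum they ran over -0.063 to 0.62 for Cacna1b and -0.47 to 0.35 for Cacna1d in A1G tumours, and -0.33 to 0.47 for Cacna1b and -0.70 to 0.40 for Cacna1c in Ptch1 tumours. Cacna1b was at -0.0075 in Ptch1 tumours with only the compared groups fitted, and Cacna1c at 0.0153 with no filter. The causes were not tested.

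Libraries of equal replicate number had correlations of deviations of -0.0607 to 0.195, over 0.1 in 3 of 9 pairs. The labels do not state whether equal numbers mark a shared animal or day, and these correlations cannot settle it. With the replicate block, 0, 5 and 6 pore genes were called in A1G against Ptch1 tumours, A1G tumours against cerebellum and Ptch1 tumours against cerebellum. Scn8a then passed in A1G tumours (-1.0001, adjusted p = 0.0230) and Cacna1g was at -4.04. Over all genes, A1G against Ptch1 tumours gave 2 calls by edgeR, 81 with no filter, 163 by DESeq2, 0 with only these groups fitted and 0 to 4 with 1 library left out. Scarce pores such as Scn1a rested on 30 to 119 fragments per tumour library, which limits their folds.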
